A study of Mus musculus with 6 samples.

Results

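The transforming growth factor beta (TGF-beta) genes studied here were Tgfb1, the receptor genes Tgfbr1 and Tgfbr2, and the Smad genes Smad1 to Smad7. They were chosen by name, with earlier results of these data known. Each was read at every probe set that the array annotation gives to that gene alone. This gave 25 probe sets for 10 genes, of 45101 probe sets on the array, where 18193 genes had at least 1 probe set to themselves. The RNA came from erythroid progenitors of mouse fetal liver at embryonic day 13.5, the stage at which the liver is the main site of red cell formation. Cells had been stained with the viability dye 7AAD and with antibodies to CD71 and Ter119, then sorted as early erythroid progenitors. One group was wild type and the other homozygous for the Eklf knockout (Eklf -/-). Each had 3 fetal liver samples on 3 arrays, and both carry the strain label C57BL/6. Eklf, gene symbol Klf1, encodes a zinc finger activator of erythroid genes. Per the labels, the targeted allele was built from a strain 129 genomic clone, and the sources used here do not give the sort gates.

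TGF-beta ligands bind the type II receptor, encoded by Tgfbr2, which recruits and phosphorylates the type I receptor, encoded by Tgfbr1. The active receptor pair phosphorylates the receptor-regulated Smads Smad2 and Smad3, which join the common partner Smad4 and enter the nucleus. Smad1 and Smad5 carry the parallel signal of bone morphogenetic proteins (BMPs), and Smad6 and Smad7 are inhibitors of both routes. In blood formation TGF-beta is known as a restraint on the cycling of stem and progenitor cells, and BMP signals through Smad5 are known from stress erythropoiesis.

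On the knockout-labelled arrays the ligand, both receptors and the Smads of the TGF-beta route were lower, at the brightest probe set of each gene. Tgfb1, Tgfbr1, Tgfbr2, Smad2, Smad3 and Smad4 fell, by 1.65- to 2.95-fold. Smad5 rose 1.70-fold, and Smad1, Smad6 and Smad7 did not pass the test. Thus 6 of 10 genes were called lower and 1 higher by limma at an adjusted p under 0.05, over 27023 probe sets tested. Of all 12799 genes at their brightest probe set, 19.7% were called lower and 26.1% higher (45.8% either way). Over all 21 member probe sets bright enough to be tested, 9 were called lower and 1 higher, against 15.7% lower and 28.1% higher (43.8% either way) among all probe sets tested. Of these 9, the dimmest Smad1 probe set was bright enough only through its wild-type-labelled values. The groups did not overlap at 14 of the 21, against 57.6% of all. Probe sets of the same gene did not always move together, as described below. In bulk RNA of this kind, fewer cells of a type and less RNA per cell cannot be told apart.

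**Figure D1:**
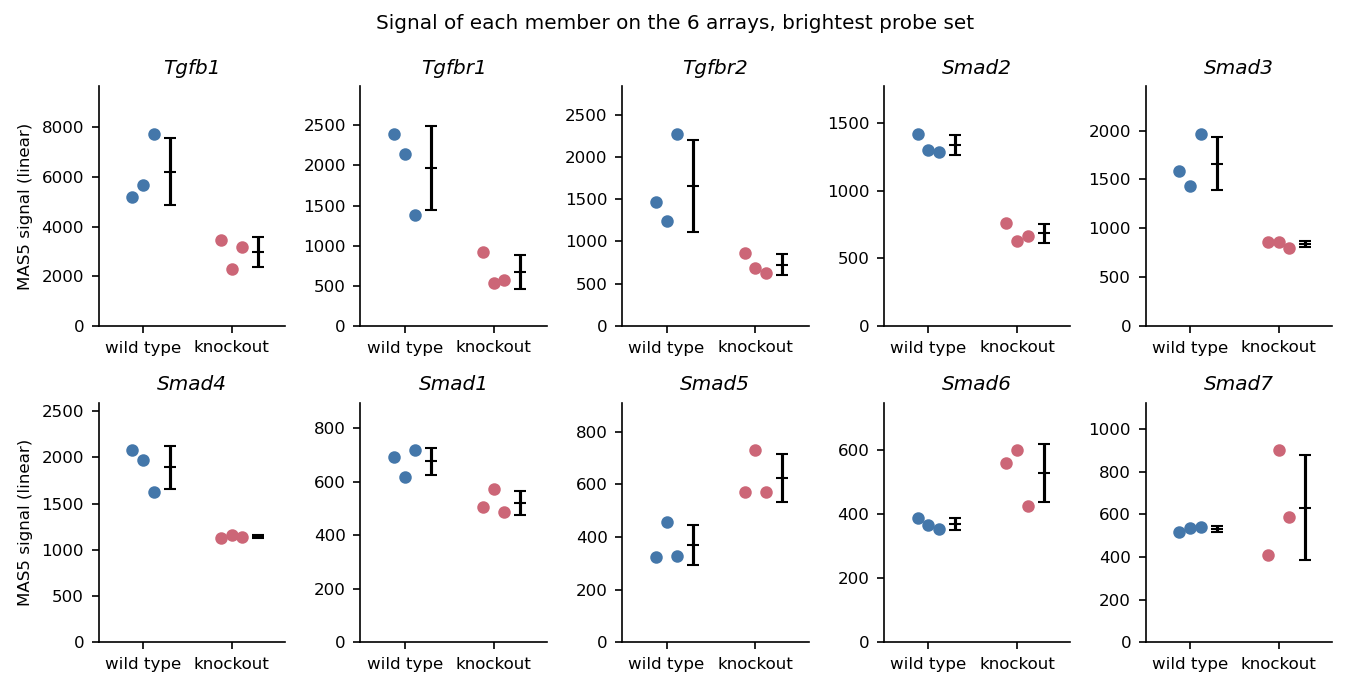
Signal of each of the 10 genes at its brightest probe set (MAS5 signal, linear axis from 0) on the 3 wild-type-labelled arrays (blue) and the 3 knockout-labelled arrays (red), with mean and SD at the side (n = 3). The groups do not overlap for 9 of the 10 genes, Smad7 being the exception.

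Facts of the arrays bear on every value. MAS5 brought each array to a trimmed mean of 500, while the median signal was 97.7 to 140 on the wild-type-labelled arrays and 204 to 218 on the knockout-labelled ones. The 18 hybridisation control probe sets, added in fixed amounts, were 1.6- to 4.16-fold brighter on the knockout-labelled arrays. The median log2 difference (knockout-labelled minus wild-type-labelled, here and throughout) was 0.32 over all probe sets tested. The knockout labels are numbered fetal liver 1 to 3 and the wild-type labels replicate 1 to 3. Whether an array is 1 liver or a pool is not given there, and p-values measure the spread between these 3 samples a group. Klf1 itself read 2508, 2706 and 4030 under the wild-type label against 3505, 1391 and 2545 under the knockout label. These overlap (log2 difference -0.38 ± 0.32, SE; limma adjusted p = 0.358; exact two-sided permutation p = 0.5, where 0.1 is the smallest possible), so groups are named by their labels.

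Marker lists of blood and liver cell types also differed between the groups, each gene being read at its brightest probe set. Among all 12799 genes read in this way, 26.1% were called higher and 19.7% lower (45.8% either way). All 9 erythroid markers tested rose with the knockout label, and their summed signal went from between 20400 and 20560 to between 103200 and 162300. Such sums are set mainly by the brightest genes and are no measure of RNA amounts. Hbb-y alone averaged 49920 on the knockout-labelled arrays, while Tfrc rose 1.38-fold (log2 difference 0.47). The 2 other tested Tfrc probe sets gave log2 differences of 1.15 and 1.44. Stem and progenitor markers were lower for 6 of 8 (sums 22960 to 24430 against 6636 to 7659), and lymphoid markers for 7 of 8 (22010 to 32720 against 832 to 1420). Higher were 10 of 10 hepatocyte markers (7831 to 8487 against 99570 to 170000), 7 of 8 stromal (1035 to 1304 against 16350 to 26520), 7 of 8 megakaryocyte (7031 to 8185 against 31630 to 40780) and 5 of 9 endothelial markers (2385 to 2981 against 5787 to 7600). Of 8 macrophage markers 6 were higher and 1 lower (10300 to 12550 against 11750 to 15530), and of 8 granulocyte markers 5 were lower (157600 to 182700 against 90450 to 189100). No marker was at 0. Some called markers had a mean under the brightness filter (a signal of 98.6) in 1 group and were tested through the other group. Under the wild-type label these were Fgb, Col1a1, Pdgfra, Dcn, Lum, Tie1, C1qc and Marco, and under the knockout label Cd79a, Vpreb1 and Rag1. On the log2 scale of the filter Cdh5, at 109.5, 118.5 and 72.7 under the wild-type label, belongs with them. The marker counts include them and are descriptions only. Granulocyte genes were bright in both groups, with Mpo at 24250 and 25170 on average, so erythroid markers were not the only lineage genes present. TGF-beta pathway genes are expressed in several of these cell types, and the part of the cell mixture in the differences below was not tested.

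Tgfb1, the ligand, had signals of 5178, 5691 and 7724 on wild-type-labelled arrays against 3459, 2302 and 3191 on knockout-labelled arrays. Every knockout-labelled value was below every wild-type-labelled value. Means of 6198 ± 1347 and 2984 ± 605 (SD, n = 3) gave a log2 change of -1.05 ± 0.21 (SE; limma, adjusted p = 0.00482). The other Tgfb1 probe set gave 394 ± 95.4 and 388 ± 23.3, with overlapping groups and a difference of 0.0062 (limma adjusted p = 0.986). The fall was therefore seen at 1 of the 2 Tgfb1 probe sets.

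Tgfbr1, the type I receptor kinase, showed the largest fall among the brightest probe sets of the 10 genes. Wild-type-labelled signals were 2392, 2141 and 1384, and knockout-labelled signals 923, 530 and 567. The groups were well apart, with means of 1972 ± 525 and 673 ± 217 and a change of -1.56 ± 0.28 (log2, SE; limma adjusted p = 0.00263). Only 4.71% of all probe sets tested had a lower difference. The 2 other Tgfbr1 probe sets lay near the brightness filter and did not pass. One gave 91.7, 132 and 131 against 190, 318 and 158, without overlap (0.87 ± 0.38, limma adjusted p = 0.0912), and the other 148, 113 and 107 against 184, 125 and 111, with overlap (0.17 ± 0.37, 0.732). All 3 Tgfbr1 probe sets cite the same source sequence in the annotation.

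Tgfbr2, the ligand-binding type II receptor, read 1469, 1239 and 2273 in the wild-type-labelled group and 868, 681 and 625 in the other. Again no value of one group lay within the other. From 1660 ± 543 the mean went to 725 ± 128, a change of -1.16 ± 0.25 on the log2 scale (SE; adjusted p = 0.00639, limma). Its 2 other probe sets lay under the brightness filter (a signal of 98.6), with means of 40.3 and 72.7, and of 60.1 and 29.2, and their groups overlapped. They are given as values with no test.

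The RefSeq promoter table (GRCm38.p6) held 10 start sites for 7 of the 10 genes, with no entry for Smad2, Smad4 or Smad7. The 250 bases before each start were searched on both strands for CCACNCCC, a CACCC box of the kind that Klf1 binds, here as letters only. It was found in 4 of the 10 windows, against 15.9% of 32851 promoter windows of the same length. The looser CCNCNCCC, which contains every CCACNCCC match, was found in 8 of the 10 (45.9% of all windows), and the Smad box CAGAC in 3 (42.2%). Of the 3 Smad5 windows 2 overlap and share their match. The windows of the ligand and both receptors, which fell together at their brightest probe sets, and of Smad5, which rose, are shown 5′ to 3′ at the first listed start, with CCACNCCC or its reverse complement in capitals.
Tgfb1 (chr7:25686752-25687001, plus strand): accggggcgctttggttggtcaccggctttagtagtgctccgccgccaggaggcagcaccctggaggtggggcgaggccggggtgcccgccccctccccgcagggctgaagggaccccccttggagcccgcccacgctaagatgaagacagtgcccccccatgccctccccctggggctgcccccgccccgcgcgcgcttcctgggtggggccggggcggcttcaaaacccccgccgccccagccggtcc
Tgfbr1 (chr4:47352972-47353221, plus strand): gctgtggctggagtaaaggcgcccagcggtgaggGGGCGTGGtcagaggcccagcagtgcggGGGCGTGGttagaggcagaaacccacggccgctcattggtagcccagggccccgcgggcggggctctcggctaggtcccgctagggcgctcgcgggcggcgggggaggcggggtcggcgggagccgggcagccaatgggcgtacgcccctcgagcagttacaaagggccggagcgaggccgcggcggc
Tgfbr2 (chr9:116175364-116175613, minus strand): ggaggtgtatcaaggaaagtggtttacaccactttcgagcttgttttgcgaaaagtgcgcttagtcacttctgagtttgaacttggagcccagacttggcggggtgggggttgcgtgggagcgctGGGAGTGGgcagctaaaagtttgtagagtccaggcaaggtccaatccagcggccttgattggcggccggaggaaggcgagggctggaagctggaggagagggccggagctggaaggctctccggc
Smad5 (chr13:56702760-56703009, plus strand): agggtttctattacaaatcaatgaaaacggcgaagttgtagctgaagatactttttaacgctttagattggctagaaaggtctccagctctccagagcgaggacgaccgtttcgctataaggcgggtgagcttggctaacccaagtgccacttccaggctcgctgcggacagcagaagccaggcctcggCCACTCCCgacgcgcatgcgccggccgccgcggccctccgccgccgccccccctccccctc
The Tgfbr1 window held 2 matches, whose first bases lie 216 and 188 bases before the start, and that of Tgfbr2 held 1 at 125 bases. The Smad5 window held 1 match at 61 bases, and that of Tgfb1 held 0 of the stricter box and 6 of the looser one. Genes that fell and the gene that rose thus both had windows with a match, and no binding was measured here.

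Smad2 and Smad3, the receptor-regulated Smads of the TGF-beta route, fell to about the same extent at their brightest probe sets. Smad2 signals were 1421, 1301 and 1287 with the wild-type label and 763, 631 and 665 with the knockout label. These were tight groups without overlap, and the log2 change was -0.96 ± 0.17 (SE; limma, adjusted p = 0.00252). The other Smad2 probe set gave 182, 234 and 184 against 30.6, 26 and 23.3. Its mean over the 6 arrays fell below the brightness filter, and all its knockout-labelled values lay under that level (a signal of 98.6). It is therefore given as values with no fold and no test. Both Smad2 probe sets read lower on all 3 knockout-labelled arrays, the second being bright only under the wild-type label.

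Smad3 gave 1584, 1436 and 1966 against 864, 856 and 801 (means 1662 ± 273 and 840 ± 34.6), or -0.97 ± 0.18 in log2 (SE; limma, adjusted p = 0.00292). The knockout-labelled values lay close together and all below the wild-type-labelled ones. The 2 other Smad3 probe sets overlapped between groups, with means of 287 ± 99.3 and 308 ± 79.9 (0.12 ± 0.32, adjusted p = 0.772) and of 140 ± 54.1 and 183 ± 111 (0.22 ± 0.58, adjusted p = 0.771). Their intervals, -0.61 to 0.86 and -1.09 to 1.53, are wide enough to hold both a rise and a fall. The first of these is a probe set whose name ends in _s_at, which Affymetrix uses where probes match more than 1 transcript.

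Smad4, the partner shared by both routes, gave 2073, 1975 and 1625 against 1130, 1164 and 1135. The knockout-labelled values were again nearly equal to each other (1143 ± 18.5, against 1891 ± 236), and the log2 change was -0.72 ± 0.16 (SE; limma, adjusted p = 0.00794). A second Smad4 probe set moved the same way, with means of 1037 ± 115 and 726 ± 30.3 and a difference of -0.51 ± 0.18 (adjusted p = 0.0419). With 1 array left out at a time, the call at the brightest Smad4 probe set held in all 6 fits. The call at the second probe set held only without wild-type-labelled array 3. It was lost without each of the other 5 arrays (limma adjusted p 0.0163 to 0.145 over the 6 fits). It was also lost with the replicate number as a block (adjusted p = 0.0658), after quantile normalization (0.061) and cyclic loess (0.0736), without the filter (0.0533) and without the variance trend (0.0673). The third Smad4 probe set did not pass at 1343 ± 93.2 against 1248 ± 225 (-0.12 ± 0.18, adjusted p = 0.611). Its knockout-labelled values of 1050, 1492 and 1202 spanned the wild-type-labelled range.

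The BMP-route Smads were split by probe set. Smad1 at its brightest probe set gave 693, 620 and 718 against 506, 572 and 488. These groups did not overlap, but the difference of -0.38 ± 0.19 (SE) did not pass (limma adjusted p = 0.135). A second Smad1 probe set, an _s_at set, fell from 606, 555 and 617 to 247, 223 and 148. Its log2 difference was -1.56 ± 0.27 (limma adjusted p = 0.0022), and it passed in each of the 6 fits without 1 array. The third Smad1 probe set fell from 291 ± 50.2 to 104 ± 80.7 (-1.80 ± 0.57, adjusted p = 0.031), with scattered knockout-labelled values of 34.6, 84.8 and 193. On the log2 scale of the brightness filter its knockout-labelled mean lay under the filter, so it was tested only through the wild-type-labelled group. Its call was lost in 5 of those 6 fits, the exception being the fit without knockout-labelled array 3, and the difference was -1.17 without knockout-labelled array 1. All 3 Smad1 probe sets were therefore lower on every knockout-labelled array, by amounts that differed.

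Smad5, which with Smad1 carries BMP signals, rose at its brightest probe set from 326, 457 and 328 to 572, 729 and 571. The groups did not overlap, and the log2 difference was 0.76 ± 0.23 (SE, limma adjusted p = 0.0272). The call was lost without wild-type-labelled array 1, without knockout-labelled array 2 and without knockout-labelled array 3 (adjusted p 0.0911, 0.095 and 0.0548). A second Smad5 probe set pointed the other way, at 534 ± 170 against 354 ± 63.9, with overlapping groups (-0.56 ± 0.30, adjusted p = 0.153). Without wild-type-labelled array 3 that difference was -0.84 and passed (adjusted p = 0.0235). The third gave 343 ± 5.87 and 401 ± 54.7 (0.22 ± 0.22, adjusted p = 0.441). The direction of Smad5 therefore depended on the probe set read.

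The inhibitory Smads did not fall with the receptors. Smad6, which mainly restrains BMP signals, measured 390, 367 and 354 in the wild-type-labelled group and 562, 600 and 428 in the other. The groups did not overlap, but the difference of 0.50 ± 0.22 (SE) did not pass (limma adjusted p = 0.0943). Smad7, which targets the TGF-beta receptors for degradation, gave 515, 537 and 541 against 409, 898 and 586. The wild-type-labelled values were nearly equal, and knockout-labelled values lay on both sides of them (0.18 ± 0.28, adjusted p = 0.63). The second Smad7 probe set, an _x_at set whose probes can match unrelated transcripts, lay under the filter with means of 70.9 and 92.6.

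**Figure D2:**
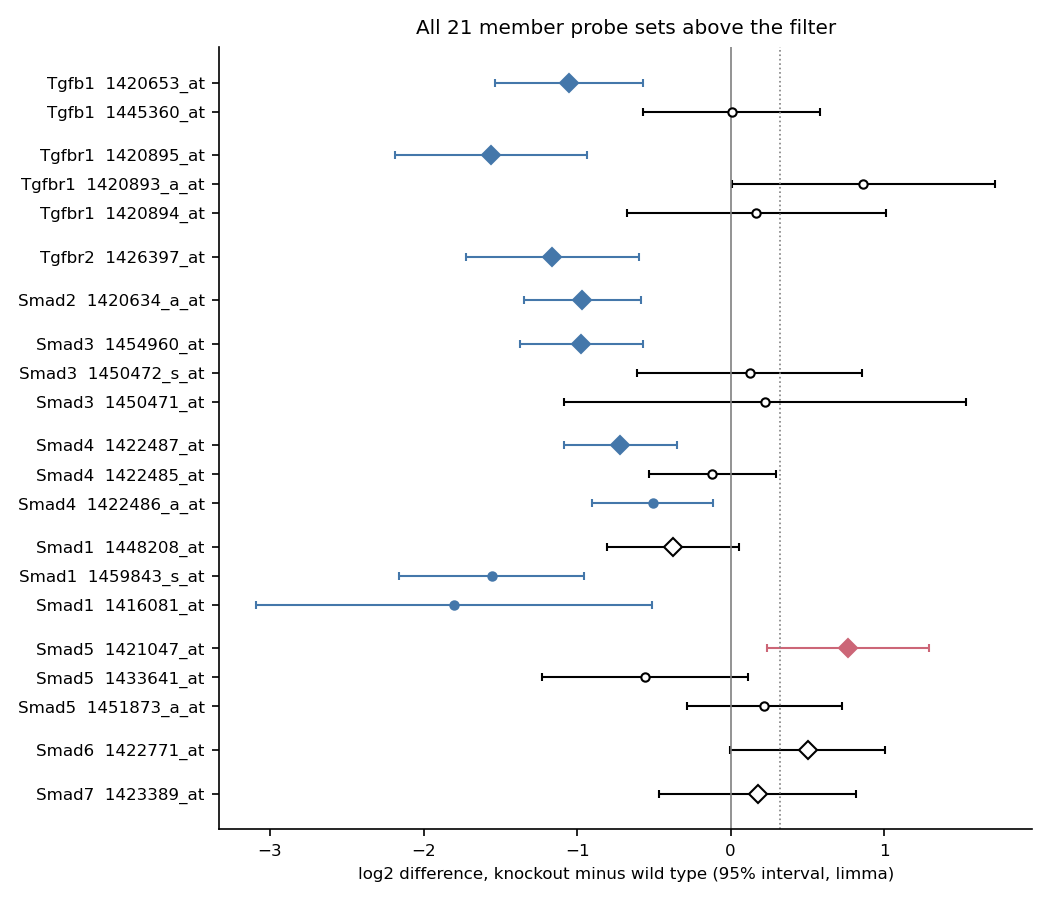
Log2 difference (knockout-labelled minus wild-type-labelled) with limma's 95% interval for the 21 member probe sets above the filter, grouped by gene. Diamonds mark the brightest probe set of a gene, blue a call lower, red a call higher and open symbols no call. The dotted line is the median of all probe sets tested, 0.32, and 12 of the 21 differences lie below 0.

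The median difference was -0.84 over the 10 genes at their brightest probe set, against 0.14 over all 12799 genes, and -0.38 over the 21 member probe sets, against 0.32 over all probe sets tested. Groups did not overlap for 9 of the 10 genes, against 59.3% of all genes. Calls on this array varied with brightness, so genes were divided into 4 equal classes of signal, class 4 being the brightest. Tgfb1 and Smad4 lay in class 4, where 34.2% of genes were called lower and 14.1% higher. Smad2, Smad3, Tgfbr1 and Tgfbr2 lay in class 3 with Smad1, where 26.3% were lower and 16% higher. Smad5, Smad6 and Smad7 lay in class 2, with 13% lower and 32.7% higher, and no member lay in class 1, with 5.25% lower and 41.6% higher. Among all probe sets tested, the share with a lower difference was 8.01% for Tgfbr2, 9.35% for Tgfb1, 10.5% for Smad3, 10.6% for Smad2 and 15.3% for Smad4. It was 24.7% for Smad1, 44.6% for Smad7, 56.5% for Smad6 and 66.15% for Smad5. This order does not change when an array is scaled by a constant.

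The scaling of the arrays shifted all differences. The 6 genes that fell also passed as lower after quantile normalization, cyclic loess, centring on array medians and centring on the hybridisation controls. Tgfbr1 gave -1.55, -1.42, -2.37 and -2.87 under these, in that order, and Smad4, the least changed of the 6 as deposited, gave -0.57, -0.52, -1.53 and -2.03. Smad5 did not pass under any of them and was below 0 under both kinds of centring (0.51, 0.54, -0.052 and -0.55). Smad6 was likewise below 0 after centring (-0.31 and -0.81), as was Smad7 (-0.64 and -1.14). The medians of all probe sets tested were 0.0059, 0.031, -0.49 and -0.99 in the same order, so Smad5 and Smad6 lay above the median each time. The share of higher calls among all calls was 64.2% as deposited and 46.5%, 47.8%, 17% and 4.84% under the 4 scalings.

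**Figure D3:**
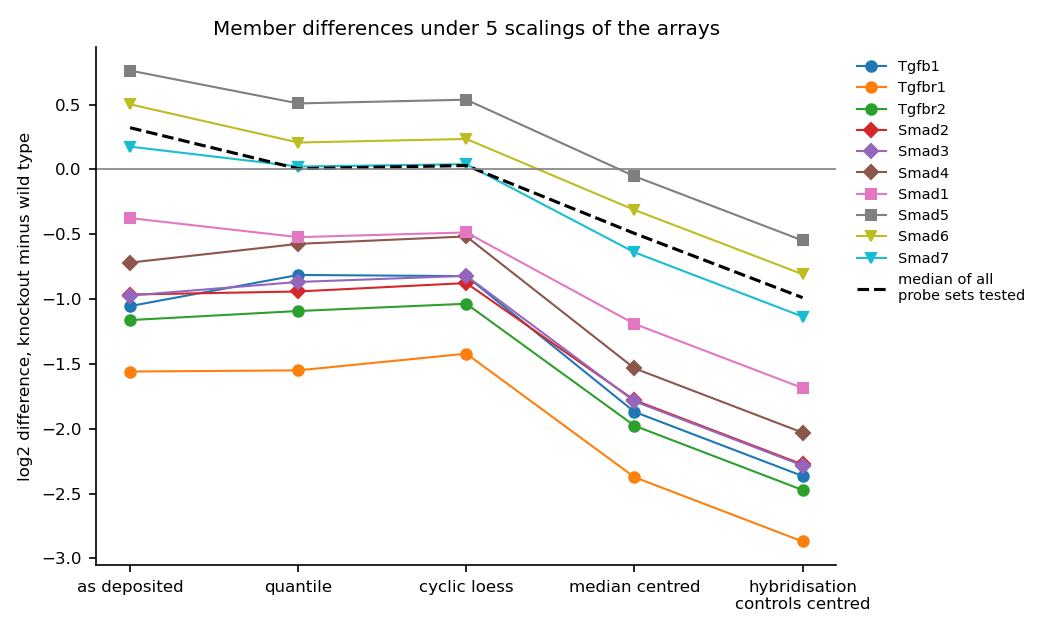
Log2 difference of each gene at its brightest probe set (vertical axis) under 5 scalings of the arrays (horizontal axis), with the median of all probe sets tested as a dashed line. Tgfb1, Tgfbr1, Tgfbr2, Smad2, Smad3 and Smad4 stay below the dashed line and Smad5 and Smad6 above it.

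Probe sets of 1 gene were also compared with each other on the same array, which removes any constant scaling. This comparison was chosen after the values were seen, and 11 pairs were formed over 6 genes. In 9 of the pairs the ratio of the brightest to the other probe set did not overlap between groups, each with an exact two-sided permutation p of 0.1, the smallest that 3 against 3 arrays allow (0.122 after Benjamini-Hochberg adjustment over the 11 pairs). Of all 9800 such pairs on the array 50.5% did not overlap, so this is common among genes with several probe sets. For Tgfbr1 the log2 ratio of the brightest probe set to the first of the others was 4.71, 4.03 and 3.40 with the wild-type label and 2.28, 0.74 and 1.84 with the knockout label. The ratio to the remaining probe set shifted by -1.73. For Smad5 the ratio of the brightest probe set to the one with a negative difference went from -0.49 ± 0.37 to 0.83 ± 0.28 (SD, n = 3). For Smad1 the ratio of the brightest to the _s_at probe set went from 0.19 ± 0.029 to 1.37 ± 0.34. In the pairs given for these 3 genes the shift in ratio was larger than the difference of the brightest probe set itself. The same held for Smad3 (-1.1 and -1.2 against -0.97) and, barely, for Tgfb1 (-1.061 against -1.054). It did not hold for Smad4 (-0.6 and -0.21 against -0.72) or for the other Smad5 pair (0.54 against 0.76). Of the 6 genes with several tested probe sets 4 held differences of both signs, against 43.7% of 5679 such genes on the array, and 0 had calls in both directions, against 5.78%. The sources used here do not say which part of a transcript each probe set covers.

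**Figure D4:**
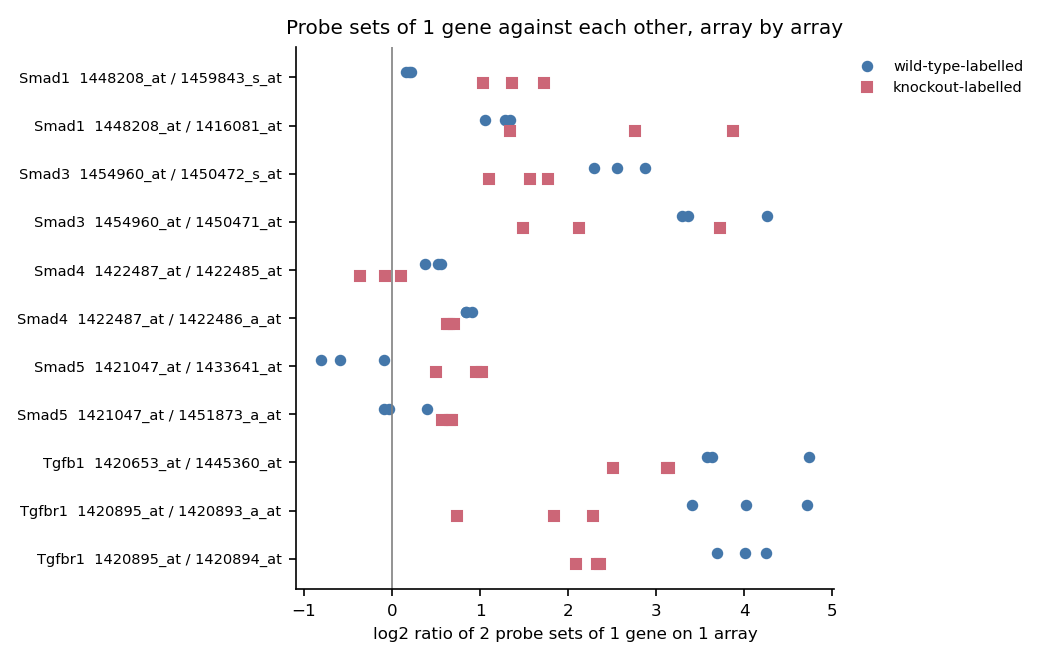
Log2 ratio of the brightest probe set to another tested probe set of the same gene, on each wild-type-labelled (blue circles) and knockout-labelled (red squares) array. In 9 of 11 pairs the blue and red points do not overlap, with the widest gap of means for Tgfbr1, -2.42.

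The other genes of the TGF-beta and BMP pathways were read from 9 lists by role, each gene at its brightest probe set. Of 137 listed genes 131 had a probe set of their own and 110 were bright enough to be tested. Of these 33 rose and 26 fell with a median of 0.14, against 0.14 over all genes, of which 26.1% were called higher and 19.7% lower. The balance depended on the scaling: pathway genes gave 20 higher and 25 lower calls after quantile normalization, 22 and 25 after cyclic loess, 14 and 52 after median centring (median -0.68) and 5 and 52 after centring on the hybridisation controls (median -1.17). Of the 33 that rose, 14 had a wild-type-labelled mean under the brightness filter and were tested only because the knockout-labelled group was bright, whereas all 26 that fell were above the filter in both groups. For those of the 14 that are named below (Gdf11, Ltbp2, Dcn, Pmepa1, Foxh1, Col1a1, Snai2 and Ccn1) both means are given without a fold. Counts by role are descriptions, and differences between roles were not tested.

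Among ligands and activin chains 6 of 9 tested genes rose and 1 fell (median 1.05). Inha, an inhibin subunit, rose from 147 ± 19.7 to 482 ± 143 (SD, n = 3; log2 difference 1.68), and did not pass after centring on the hybridisation controls (0.37, limma adjusted p = 0.67). Nodal, a ligand of early patterning, rose by 1.61 and Gdf11, a ligand that acts on activin receptors, went from 94.1 to 323, and both lost their calls after quantile normalization (limma adjusted p = 0.0516 and 0.0947). Inhba, an activin chain, was the 1 that fell, from 714, 929 and 303 to 69.6, 84.9 and 380, with overlapping groups (-2.16 ± 0.65, adjusted p = 0.0255). The other TGF-beta isoforms, Tgfb2 and Tgfb3, lay under the filter, with means of 46.3 and 130 and of 17.7 and 108, so Tgfb1 was the 1 tested TGF-beta ligand.

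Of genes that keep TGF-beta latent or release it, 4 of 9 rose and 2 fell (median 0.81). Nrros, which holds latent TGF-beta1 on myeloid cells, fell with Tgfb1. It gave 4350, 4720 and 5138 against 1212, 1582 and 1836, a log2 change of -1.64 ± 0.18 (SE; limma, adjusted p = 0.000258), and it passed in all 20 alternatives. Mmp14, a membrane protease, rose from 192 to 1012 (2.40), a call lost after centring on the hybridisation controls (1.09, limma adjusted p = 0.145). Ltbp2, a latent TGF-beta binding protein family member, went from 65.7 to 223, and its call was lost under all 4 other scalings (adjusted p 0.0735 to 0.658). Furin, the protease that cleaves the TGF-beta precursor, fell by 0.79.

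Other receptors and coreceptors gave 6 rises and 1 fall among 14 tested (median 1.17), 4 of the 6 being genes with a wild-type-labelled mean under the filter. Tgfbr3, the coreceptor betaglycan, rose while Tgfbr1 and Tgfbr2 fell, from 1038, 994 and 786 to 2394, 2875 and 2775. All knockout-labelled values were above all wild-type-labelled ones, the log2 difference was 1.52 ± 0.17 (SE, limma adjusted p = 0.00028), and its second tested probe set gave 1.64. After centring on the hybridisation controls it was 0.21 and did not pass (adjusted p = 0.821). Acvr1b, a type I activin receptor that signals through Smad2 and Smad3, fell from 1285 ± 111 to 565 ± 60.6 (-1.19), and Acvr1, a type I receptor of the BMP route, rose from 232 to 576 (1.33). Averaging the probe sets of Acvr1b ended its call (adjusted p = 0.301), and median centring ended that of Acvr1 (0.143). The BMP receptors Bmpr1a (0.38, adjusted p = 0.338) and Bmpr2 (-0.16, 0.684) and the coreceptor Eng (-0.24, 0.408) did not pass at their brightest probe sets. Other tested probe sets gave 0.54 to 1.13 for Bmpr1a, 0.32 and 1.15 for Bmpr2 and -1.3 for Eng.

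Of 5 tested antagonists at the cell surface or outside the cell, 4 rose and Bambi, a pseudoreceptor, did not pass (0.51, limma adjusted p = 0.143). The 5 other antagonists lay under the filter, and 2 of the 4 that rose, Dcn and Grem1, passed it through the knockout-labelled group, so the count does not describe antagonists as a whole. Dcn, a matrix proteoglycan that binds TGF-beta, went from 92.5 to 1858, and Fstl1, a follistatin-like secreted protein, rose from 101 to 966 (3.25). Tmprss6, the liver protease that cleaves the BMP coreceptor Hjv, rose by 1.88, but did not pass after centring on the hybridisation controls (0.57, adjusted p = 0.488). Dcn is itself a stromal marker, and the stromal and hepatocyte marker sums given above rose in the same samples. Their part in these rises was not tested.

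Among ubiquitin ligases, phosphatases and deubiquitinases that act on Smads or receptors, 5 of 17 fell and 1 rose (median -0.39). Ctdspl, a small C-terminal domain phosphatase, fell by 1.64 and Uchl5, a deubiquitinase, fell by 1.06. Ctdsp2, a related phosphatase, fell by 0.71 at its brightest probe set, while its 2 other tested probe sets were above 0, the higher at 1.48. Smurf2, a ligase that works with Smad7, fell by 0.78, and Usp15, a deubiquitinase, rose by 0.90. Their other tested probe sets ranged from -0.27 to 0.51 for Smurf2 and from -0.05 to 1.06 for Usp15.

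Adaptors and receptor regulators were evenly divided, with 4 of 10 higher and 4 lower (median 0.045). Dab2, an endocytic adaptor, rose from 180 to 1206 (2.75), and Pmepa1, an inhibitor induced by TGF-beta, went from 70.1 to 278. Fkbp1a, which binds the type I receptor, fell by 0.81. Averaging the probe sets of each gene ended both calls (Pmepa1, limma adjusted p = 0.0511, and Fkbp1a, -0.15 and 0.529), and centring on the hybridisation controls ended that of Pmepa1 (0.463). Smad9, the remaining Smad of the BMP route, lay under the filter, with means of 37.9 and 147.

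Of 18 tested nuclear corepressors and coactivators 6 fell and 1 rose (median -0.37). Atf2 fell by 1.12, although 1 of its 3 other tested probe sets gave 1.00 and the mean of all its probe sets did not pass (-0.067, limma adjusted p = 0.832), and Hdac1, a histone deacetylase, fell by 0.69. Foxh1, a DNA-binding partner of Smad2, went from 60.8 to 900 at an _s_at probe set. The corepressors Ski (-0.19, limma adjusted p = 0.455) and Skil (-0.49, 0.112) did not pass. Of 12 kinases and adaptors outside the Smad route 2 rose and 2 fell (median -0.12). Mapk14, the kinase p38 alpha, fell by 1.28, with 2 of its 5 other tested probe sets above 0 and no call for the mean of all its probe sets (adjusted p = 0.0716). Map2k3, a kinase upstream of it, rose by 0.70 and Traf6, a ubiquitin ligase, by 0.83, and both calls depended on the scaling. The 2 other tested Traf6 probe sets gave -1.4 and 1.24.

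Transcripts known from other systems to respond to TGF-beta or BMP went both ways, with 5 of 16 higher and 5 lower (median 0.20). Id2, an inhibitor of basic helix-loop-helix factors, fell from 4134, 3485 and 4301 to 1054, 1254 and 1129, a log2 change of -1.79 ± 0.16 (SE; limma, adjusted p = 7.36e-05). Klf10, an early TGF-beta response gene, fell from 1059 ± 48.9 to 371 ± 79.6 (-1.53). Id3 fell by 0.73, Tgfbi fell by 1.56 and Myc fell by 0.73, while Id1, a main BMP target, did not pass (-0.66, adjusted p = 0.0681). Col1a1, the collagen chain counted here also as a stromal marker, went from 79.6 to 3274, and Hamp, the hepatocyte hormone hepcidin, rose from 213 to 1217 (2.29). Snai2 went from 53.6 to 232 and Ccn1 from 93.1 to 505, and Fn1 rose by 1.61. Genes outside the 3 of smallest p in each list were named after their values were seen.

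**Figure D5:**
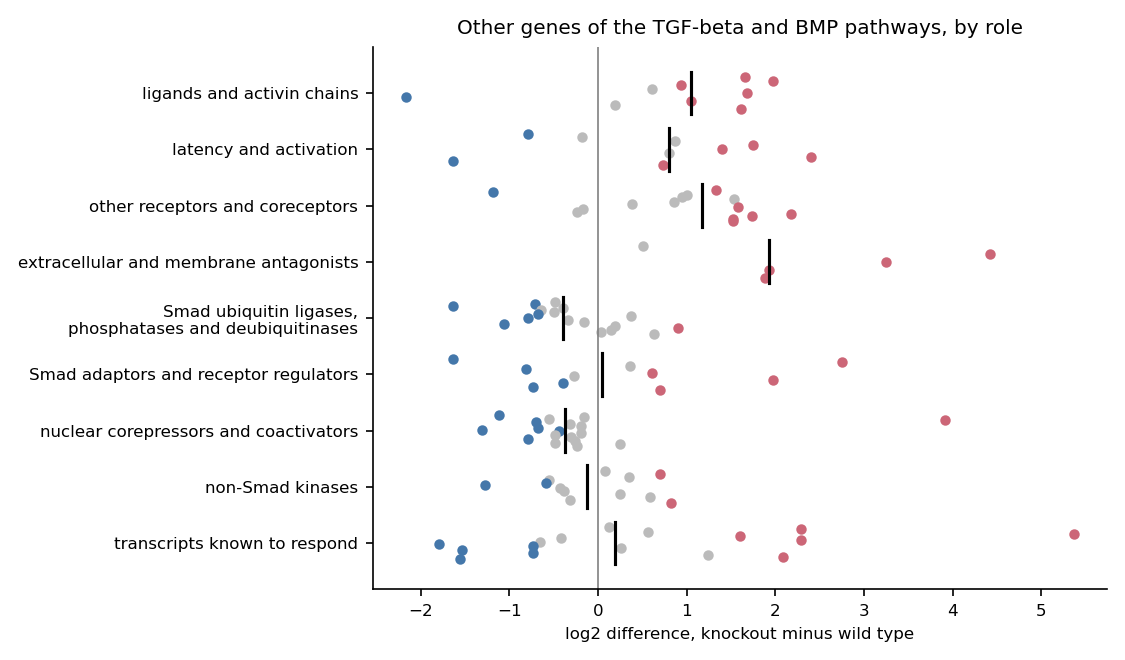
Log2 difference (knockout-labelled minus wild-type-labelled) of the 110 tested pathway genes at their brightest probe set, 1 point per gene, by role. Red points were called higher (33), blue lower (26) and grey neither, and black bars are the medians, which include genes that passed the brightness filter through 1 group alone.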

How the data were processed

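Each array has 1 deposited intensity per probe set, linear, from MAS5 and Expression Console as named in the submitters' processing notes, which give no version. MAS5 subtracts background and scales each array, so signals of different probe sets are not compared as amounts of RNA, and depth does not apply. The annotation gave 34958 probe sets 1 gene, 932 several genes and left 9211 unlisted; symbols were updated to RefSeq (34754 matched). The 303 signals below 1 were raised to 1 before log2. Left out were 64 control probe sets and the dimmest 40% of the rest by mean log2 signal (below 6.62). The 27023 others were fitted together with limma 3.58.1 in R 4.3.3 (variance trend, two-sided, Benjamini-Hochberg over all of them), and every adjusted p is from this fit unless another setting is named. A gene is represented by its brightest probe set.

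Members and gene lists were chosen with earlier results of these data known. The text names every member, the 3 called genes of smallest p in each role list, and Klf1. Tested on simulated data for this comparison with 27023 probe sets and 50 changed at each size, 36% of log2 changes of -2, 12% of -1, 10% of 1 and 60% of 2 were recovered, with 3 false calls. Far fewer probe sets changed in the simulation than the 11838 (43.8%) called on the arrays, which makes its adjusted p stricter. These rates therefore do not measure the power of the fit to the arrays. The closing section gives the alternatives. Figures used matplotlib 3.10.9.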

Additional observations from a re-analysis of the deposited data

How the results depend on the processing

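The number of arrays, 3 per group, and the brightness of probe sets limit these results. All 6 genes that fell passed as lower in 18 of 19 alternative fits. The exception was the mean of all probe sets of a gene, dim ones included: it called 4 members by gene instead of 7, and of the 6 it called 3 (Smad2, Smad4 and Tgfb1), with Tgfbr1 at -0.18, Tgfbr2 at -0.24 and Smad3 at -0.21 not passing, while Smad1 passed (-1.24, limma adjusted p = 0.00329). Smad5 was called higher in 11 of the 19. It was reversed, without passing, after median centring (-0.052) and after centring on hybridisation controls (-0.55), as were Map2k3 (-0.12 and -0.61) and, under the second, Traf6 (-0.48). The less bright Tgfb1 probe set passed as lower after median centring (-0.81), and averaging the probe sets of Ctdsp2 gave 0.67. There were 37 further sign changes in which neither fit passed. Klf1 passed after median centring (-1.20) and after centring on hybridisation controls (-1.69), and in no other alternative. At an adjusted p under 0.01, 33 pathway genes were called instead of 59. Leaving out 1 array gave 7 to 10 called member probe sets, 6 to 7 members by gene and 46 to 66 pathway genes, and a Klf1 difference of -0.68 to -0.013. The labels give both groups the numbers 1 to 3. Deviations of same-numbered arrays correlated at 0.0399, 0.0535 and 0.0762, and each wild-type-labelled array correlated best with the knockout-labelled array of its own number, a hint from the data and not the design. With the replicate block 9 member probe sets, 7 members by gene and 57 pathway genes were called, and Klf1 kept its -0.38.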
